A study of Mus musculus with 24 samples.

Results

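The genes described here are 10 members of the BCL2 family of survival and death genes, found by symbol among the 49315 genes of the count table of MS03, a murine Nf2-/- Schwann cell (SC) line. All 10 were in the table. Of these, 8 passed the filter on low counts and were tested among 16070 genes, and 2 (Pmaip1 and Bik) did not pass it and were not tested. The members are set by name, with no threshold on a measured value, but they were picked with earlier results of these data known.

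RNA was sequenced from 24 libraries in 8 groups of 3 biological replicates after 24 hours of treatment. The control received dimethyl sulfoxide (DMSO), in which every compound was dissolved. The FAK kinase inhibitors were defactinib, VS-4718, GSK2256098 and IN10018 (ifebemtinib), each at 1 μM. The other drugs were FAK-targeting proteolysis-targeting chimeras (PROTACs), molecules that bring a protein to the cell's ubiquitin machinery for destruction. PROTAC FAK degrader 1 was given at 1 μM, and the dose of both GSK215 and BSJ-04-0146 was 0.1 μM. FAK, focal adhesion kinase, relays signals from cell attachment. All groups, the control included, share the loss of Nf2, the gene whose loss underlies NF2-related schwannomatosis, and all come from 1 immortalized line, made by Cre infection of Nf2 flox/flox SCs, so that the spread between replicates is that between cultures of this line.

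Proteins of the BCL2 family decide whether the outer membrane of mitochondria stays closed. Anti-apoptotic members (BCL2, BCL-XL from Bcl2l1, and MCL1) hold the pore-forming effectors BAK and BAX in check. BH3-only members (BIM from Bcl2l11, BID, BAD, BMF, NOXA from Pmaip1, and BIK) bind the anti-apoptotic proteins, and some of them can also engage the effectors directly. Once the effectors open the membrane, cytochrome c is released and caspases are activated. BMF and BIM are known for linking detachment from the matrix and altered cytoskeleton to cell death, and both were described as bound to dynein light chains in healthy cells. Many of these proteins are also regulated by phosphorylation, cleavage and turnover, none of which mRNA counts show.

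The promoters of Bmf and Bcl2l11 are shown because these BH3-only genes were the members whose mRNA rose with all 3 PROTACs. Each run is the 250 bases upstream of the outermost start of the gene (RefSeq, GRCm38.p6), written 5′ to 3′ along the strand of the gene, with matches to the motifs named below in capitals.
Bmf, chr2:118549687-118549936, minus strand: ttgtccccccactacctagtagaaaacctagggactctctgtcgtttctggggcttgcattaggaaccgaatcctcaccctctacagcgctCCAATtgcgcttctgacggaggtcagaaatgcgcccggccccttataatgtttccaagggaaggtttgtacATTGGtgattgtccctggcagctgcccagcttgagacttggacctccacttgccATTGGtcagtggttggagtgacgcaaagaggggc
Bcl2l11, chr2:128125788-128126037, plus strand: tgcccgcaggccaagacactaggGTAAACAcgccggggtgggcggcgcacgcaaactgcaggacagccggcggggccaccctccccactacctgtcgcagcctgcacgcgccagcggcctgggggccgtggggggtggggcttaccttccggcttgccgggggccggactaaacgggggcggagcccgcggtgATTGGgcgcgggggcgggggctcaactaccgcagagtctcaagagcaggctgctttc
Windows were at hand for 8 of the 10 members (14 windows in all), and none for Pmaip1 and Bik. The FOXO letters GTAAACA, searched on both strands, were present in 3.17% of 32851 promoter windows of the same length. Among the members they were found only in this Bcl2l11 window, 227 bases before the start. The letters TGATGCAA, as in elements bound by ATF4 and CHOP together, occurred in 0.791% of the windows and in no member's window. The E-box CACGTG occurred in 6.02% of windows and in no member's window. CCAAT, a frequent promoter motif held by 33.8% of windows, occurred 3 times in the Bmf window shown, at 34, 88 and 159 bases before the start, and once in the Bcl2l11 window shown, at 57 bases. These are letter matches and not measured binding, and the motifs searched do not overlap one another.

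Total counts per library ranged from 14472462 to 27449516 and were lower in the 9 PROTAC libraries (14472462 to 21588406) than in the other 15 (21654444 to 27449516). Levels are given as CPM, counts scaled to a common library size after the TMM method of edgeR. Replicates differed by more than counting noise in every group (24 pairs, with a chi-square of 1.79 to 9.44 for each degree of freedom). The SC label was checked against its markers. In DMSO, Sox10 was at 20.1 CPM, Ncam1 at 55.5 CPM, Mbp at 15.4 CPM and Ngfr at 10.4 CPM, whereas the SC marker S100b (0.134 CPM) was near 0. The summed SC marker level ranged from 107 to 350 CPM over the libraries, with 9 of 9 markers tested called higher with GSK215, 8 with BSJ-04-0146, 6 with VS-4718, 6 with defactinib and 5 with GSK2256098, but 2 higher and 2 lower with PROTAC FAK degrader 1 and 1 higher and 2 lower with IN10018. The summed level of 3 endothelial markers ranged from 0.108 to 0.57 CPM. Of 5 macrophage markers, 4 were under 1 CPM in every group, and the defining Ptprc and Adgre1 had at most 0.0522 CPM in any library. The remaining one, Cd68, was at 3.35 CPM in DMSO and rose with PROTAC FAK degrader 1 (10.9 CPM, 1.70, adjusted p = 6.9e-16), BSJ-04-0146 (7.57 CPM, 1.17, adjusted p = 3.0e-10), GSK215 (5.96 CPM, 0.82, adjusted p = 1.5e-06) and VS-4718 (4.49 CPM, 0.42, adjusted p = 0.00978), values being log2 fold changes of the edgeR test described below. The neuron list was under 1 CPM in every group for 2 of its 3 genes, and the remaining Tubb3, at 2.79 CPM in DMSO, was higher with GSK215 (0.70, adjusted p = 0.00174), BSJ-04-0146 (0.64, adjusted p = 0.0046) and VS-4718 (0.62, adjusted p = 0.00599). Of 5 fibroblast markers, 3 were under 1 CPM, but Col1a1 (392 CPM in DMSO) and Pdgfra (12.4 CPM) were not. Pdgfra rose to 26.3 CPM with GSK215 (1.09, adjusted p = 6.1e-16) and 26.0 CPM with BSJ-04-0146 (1.07, adjusted p = 1.2e-15) and fell to 8.76 CPM with PROTAC FAK degrader 1 (−0.50, adjusted p = 3.0e-06). Col1a1 rose with VS-4718 (474 CPM, 0.27, adjusted p = 2.3e-06), defactinib (454 CPM, 0.21, adjusted p = 3.4e-04), GSK215 (446 CPM, 0.19, adjusted p = 4.0e-04) and GSK2256098 (442 CPM, 0.17, adjusted p = 0.0061) and fell with PROTAC FAK degrader 1 (286 CPM, −0.45, adjusted p = 9.3e-12) and BSJ-04-0146 (346 CPM, −0.18, adjusted p = 6.4e-04). The part of these marker changes in the results was not tested. In bulk RNA, fewer cells carrying a transcript and less transcript per cell cannot be told apart.

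Each drug was compared with DMSO by the quasi-likelihood test of edgeR, and a gene was called at a Benjamini-Hochberg adjusted p under 0.05 over the 16070 genes. With PROTAC FAK degrader 1, 3 of the 8 members tested were higher and 2 were lower, against 34.1% higher and 32.7% lower among all genes tested. With GSK215, 3 were higher and 1 was lower (all genes, 27.4% and 27.2%), and with BSJ-04-0146, 4 were higher and 2 were lower (27.7% and 26.9%). VS-4718 gave 2 higher and 2 lower (20.4% and 18.9%). Defactinib gave 1 higher and 1 lower (11.4% and 11.0%), GSK2256098 gave 2 higher and none lower (6.36% and 6.09%), and IN10018 gave none higher and 1 lower (6.44% and 6.85%). With 8 members, 1 gene is 12.5%, and the members' counts differ from the share of all genes by no more than about 2 genes for any drug. The 3 DMSO libraries are shared by all 7 comparisons. The median log2 fold change of the members lay between 0.0069 and 0.12 for the 7 drugs, beside −0.0044 to 0.021 for all genes. The members differed from one another far more than these medians. Bmf rose with 5 drugs, Bcl2l11 with 4 and Bcl2 with 3, whereas Bak1 fell with 4.

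**Figure D1:**
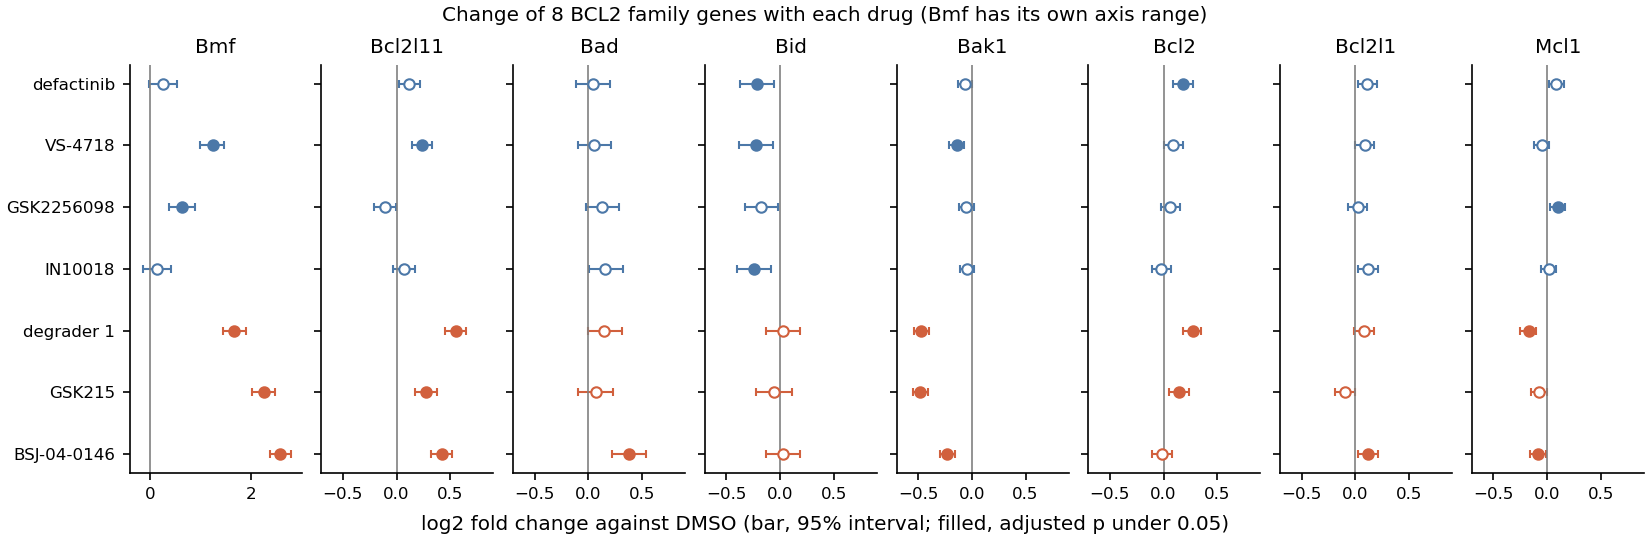
Log2 fold change of each of the 8 members tested against DMSO (x axis) for each of 7 drugs (y axis), with the 95% interval from the edgeR fit as a bar and filled points for adjusted p under 0.05. Kinase inhibitors are blue and PROTACs orange, "degrader 1" is PROTAC FAK degrader 1, and Bmf, which reaches 2.58, has a wider axis than the others.

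Bmf encodes a BH3-only protein (chr2:118528757-118549687, minus strand, GRCm38). It had the widest range of the members and was low in the control, at 3.66, 4.17 and 3.87 CPM in the 3 DMSO libraries. It stood at 22.3, 25.6 and 22.3 CPM with BSJ-04-0146, at 18.9, 19.8 and 17.3 CPM with GSK215 and at 12.8, 11.2 and 13.4 CPM with PROTAC FAK degrader 1. Every PROTAC library was thus above every DMSO and kinase inhibitor library. VS-4718 followed with 8.23, 9.65 and 9.87 CPM, and GSK2256098 with 6.48, 6.23 and 5.56 CPM, both above all DMSO libraries. Defactinib libraries had 5.23, 3.68 and 5.08 CPM and IN10018 libraries 4.43, 3.83 and 4.69 CPM, and both of these groups overlapped DMSO and each other. In the order of the levels, DMSO, IN10018 and defactinib were thus not separated, and the 3 libraries of each group from GSK2256098 upward lay above all those of the group before it.

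Against DMSO, Bmf was 5.99-fold higher in mean CPM with BSJ-04-0146 (log2 fold change 2.58 ± 0.10 SE, adjusted p = 9.8e-23) and 4.78-fold with GSK215 (2.25 ± 0.11, adjusted p = 2.0e-20). It was 3.19-fold higher with PROTAC FAK degrader 1 (1.67 ± 0.11, adjusted p = 3.0e-16). The kinase inhibitors with a call were VS-4718 at 2.37-fold (1.24 ± 0.11, adjusted p = 1.9e-11) and GSK2256098 at 1.56-fold (0.64 ± 0.13, adjusted p = 4.4e-04). The differences with defactinib (0.26, 95% interval −0.0074 to 0.53, adjusted p = 0.167) and IN10018 (0.14, −0.13 to 0.42, adjusted p = 0.558) did not pass. All 5 calls held under each of 12 alternative fits. Because Bmf is low, the log2(CPM + 4) scale shrank its changes, to 0.35 with GSK2256098, 0.74 with VS-4718 and 1.05 with PROTAC FAK degrader 1, and without defactinib replicate 2 the defactinib difference was called (0.39, adjusted p = 0.0338, with a range of 0.0338 to 0.482 over its alternatives).

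**Figure D2:**
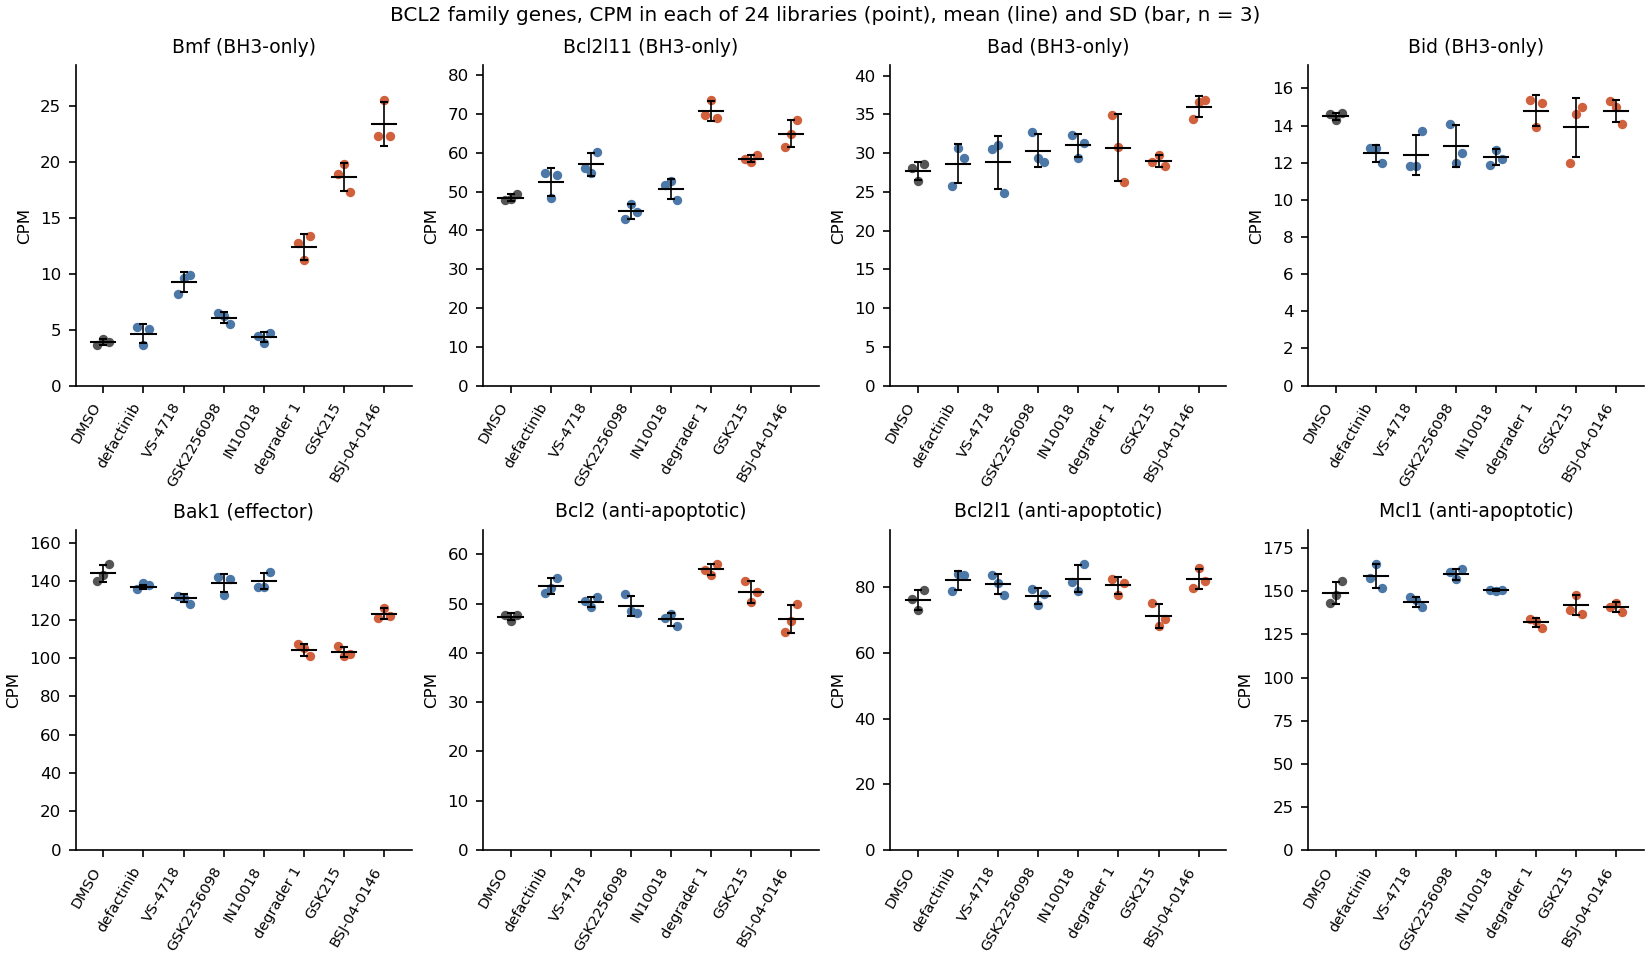
CPM (y axis, from 0) of the 8 members tested in every library (points), by treatment (x axis), with the mean as a line and the SD as a bar (n = 3); DMSO is grey, kinase inhibitors are blue and PROTACs orange. Bmf in the PROTAC libraries (11.2 to 25.6 CPM) lies above all other libraries, and Bak1 in the PROTAC libraries (101 to 126 CPM) lies below all of them.

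Bcl2l11 encodes BIM, a BH3-only protein that binds all major anti-apoptotic members (chr2:128126038-128162547, plus strand, GRCm38). DMSO libraries had 47.8, 48.0 and 49.5 CPM. The highest values were 69.6, 73.7 and 69.0 CPM with PROTAC FAK degrader 1, followed by 61.4, 64.9 and 68.4 CPM with BSJ-04-0146 and 58.4, 57.7 and 59.5 CPM with GSK215. All PROTAC libraries were above all DMSO libraries. The rise was 1.46-fold with PROTAC FAK degrader 1 (log2 fold change 0.55 ± 0.049, adjusted p = 8.1e-13), 1.34-fold with BSJ-04-0146 (0.42 ± 0.05, adjusted p = 2.3e-09) and 1.21-fold with GSK215 (0.27 ± 0.05, adjusted p = 1.4e-05). Among kinase inhibitors only VS-4718 was called, with 56.1, 54.7 and 60.2 CPM (0.24, adjusted p = 1.3e-04). GSK2256098 libraries (43.0, 46.8 and 44.8 CPM) were all below DMSO, but the difference did not pass (−0.11, adjusted p = 0.171). Defactinib (48.4 to 54.9 CPM, 0.12, adjusted p = 0.0822) and IN10018 (47.7 to 52.6 CPM, 0.066, adjusted p = 0.445) overlapped DMSO.

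Bad encodes a BH3-only protein that growth factor signalling holds inactive by phosphorylation (chr19:6941861-6951899, plus strand, GRCm38). It was called for BSJ-04-0146 only, with 34.4, 36.6 and 36.9 CPM against 28.1, 26.4 and 28.6 CPM in DMSO (1.30-fold, log2 fold change 0.38 ± 0.077, edgeR adjusted p = 5.6e-05). For the other 6 drugs the log2 fold change was between 0.048 and 0.16, and none passed. In 1 of 12 alternative fits each, Bad was called with GSK215 (0.19 with library totals, adjusted p = 0.0341, beside 0.067) and with IN10018 (0.17 with its 6 libraries alone, adjusted p = 0.0324). With PROTAC FAK degrader 1 (34.9, 30.8 and 26.3 CPM, 0.15, adjusted p = 0.0754) the difference was called in 3 of 12 alternative fits, and it was 0.26 (adjusted p = 0.00386) without its replicate 3 and 0.052 (adjusted p = 0.599) without its replicate 1. Gpr137, on the opposite strand, shares 20.5% of the exon bases of Bad, and it also rose with BSJ-04-0146 (0.32, adjusted p = 9.0e-05), with GSK215 (0.19, adjusted p = 0.013) and with VS-4718 (0.19, adjusted p = 0.0152). The strand setting of the counting is not given in the sources used here, so reads in the shared bases cannot be told apart.

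Bid encodes the BH3-only protein that caspase-8 cleaves to link death receptors to mitochondria (chr6:120891930-120916853, minus strand, GRCm38). Its libraries held 14.6, 14.3 and 14.7 CPM in DMSO, 12.8, 12.8 and 12.0 CPM with defactinib, 11.8, 11.8 and 13.7 CPM with VS-4718 and 11.9, 12.7 and 12.2 CPM with IN10018. Each of these 3 kinase inhibitor groups lay below all DMSO libraries. Bid fell by 0.21 on the log2 scale with defactinib (adjusted p = 0.0454), by 0.22 with VS-4718 (adjusted p = 0.0205) and by 0.24 with IN10018 (adjusted p = 0.0351), and the GSK2256098 libraries (14.1, 12.0 and 12.5 CPM) were also below DMSO without a call (−0.18, adjusted p = 0.147). With the PROTACs the log2 fold change was between −0.054 and 0.032, and all 3 groups overlapped DMSO. These 3 calls were close to the threshold and passed in 1 of 12 alternative fits for defactinib, 9 of 12 for VS-4718 and 5 of 12 for IN10018, with adjusted p up to 0.163. Bcl2l13, on the opposite strand at 98.2 CPM or more in every library, shares 17.7% of the exon bases of Bid, and its part in these values was not tested.

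Pmaip1, the gene of NOXA, a BH3-only protein that binds MCL1, had 0 counts in all 24 libraries. A count of 0 allows a level of up to 3 counts, which is 0.113 to 0.197 CPM per library, counting error only. Bik, a BH3-only gene of the endoplasmic reticulum, had 1 to 13 counts per library and 120 in all. Its level lay between 0.0542 and 0.615 CPM, with the highest mean with IN10018 (0.323, 0.615 and 0.451 CPM) beside 0.271, 0.188 and 0.247 CPM in DMSO. Fitted without a filter, no drug passed for Bik (adjusted p of 0.27 or more in edgeR, and 1 drug, defactinib, with an unadjusted p under 0.05), and the differences with all libraries on one side of DMSO were 0.97 with IN10018 (interval −0.072 to 2.01) and −1.40 with defactinib (0.0872, 0.091 and 0.0787 CPM, interval −2.78 to −0.013). These intervals show how little counts of 1 to 13 can resolve.

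Bak1 encodes BAK, a pore-forming effector (chr17:27019810-27029009, minus strand, GRCm38). DMSO libraries had 140, 143 and 149 CPM. Levels were 107, 105 and 101 CPM with PROTAC FAK degrader 1, 106, 101 and 102 CPM with GSK215 and 121, 126 and 122 CPM with BSJ-04-0146. All PROTAC libraries were below all DMSO and kinase inhibitor libraries, whose lowest value was 128 CPM. Bak1 fell by 0.47 ± 0.035 on the log2 scale with PROTAC FAK degrader 1 (0.724 of DMSO, adjusted p = 4.9e-15), by 0.48 ± 0.035 with GSK215 (0.716 of DMSO, adjusted p = 6.1e-15) and by 0.23 ± 0.035 with BSJ-04-0146 (0.854 of DMSO, adjusted p = 4.7e-07). Of the kinase inhibitors, VS-4718 was called (132, 131 and 128 CPM, −0.14, adjusted p = 8.1e-04), and defactinib libraries (136, 139 and 138 CPM) were below DMSO without a call (−0.065, adjusted p = 0.172). GSK2256098 (133 to 142 CPM) and IN10018 (137 to 145 CPM) overlapped DMSO. The 4 calls passed in all 12 alternative fits, but with library totals in place of TMM the Bak1 difference with BSJ-04-0146 was −0.12 (adjusted p = 0.00252). Ggnbp1, on the opposite strand, shares 18.2% of the exon bases of Bak1. It had 66 to 129 counts per library, beside 1612 to 3790 for Bak1, and it rose with GSK215 (0.50, adjusted p = 0.00112) and BSJ-04-0146 (0.51, adjusted p = 8.3e-04). Another identifier of Ggnbp1, absent from the count table, shares 7.35% of these bases. The part of either in the Bak1 values was not tested.

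Bcl2 encodes the founding anti-apoptotic member (chr1:106538178-106714274, minus strand, GRCm38). Its DMSO libraries had 47.8, 46.5 and 47.8 CPM. The libraries of PROTAC FAK degrader 1 had 56.9, 55.9 and 58.1 CPM, those of defactinib 52.2, 53.2 and 55.3 CPM and those of GSK215 54.7, 50.3 and 52.3 CPM, all above DMSO. Bcl2 rose by 0.27 ± 0.044 with PROTAC FAK degrader 1 (1.20-fold, adjusted p = 1.4e-06), by 0.18 ± 0.043 with defactinib (1.13-fold, adjusted p = 0.00221) and by 0.14 ± 0.045 with GSK215 (1.11-fold, adjusted p = 0.00653). The GSK215 call was lost without GSK215 replicate 1 (0.11, adjusted p = 0.0522), and with library totals the value was 0.27 (adjusted p = 4.6e-06), these being the ends of the range over its alternatives. VS-4718 (49.3 to 51.3 CPM) and GSK2256098 (48.1 to 51.9 CPM) lay above DMSO without a call, and IN10018 (45.4 to 47.9 CPM) and BSJ-04-0146 (44.3 to 49.9 CPM) overlapped it.

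Bcl2l1 and Mcl1 are the other anti-apoptotic members. Bcl2l1, the gene of BCL-XL (chr2:152780668-152831728, minus strand, GRCm38), ranged from 68.1 to 87.2 CPM over all libraries, with 76.4, 73.2 and 79.2 CPM in DMSO. It was called only with BSJ-04-0146 (79.9, 86.0 and 81.9 CPM, log2 fold change 0.12, adjusted p = 0.0252), and this call held in 7 of 12 alternative fits, with log2 fold changes of 0.083 to 0.23 and adjusted p of 2.7e-05 to 0.169. Differences of like size with IN10018 (81.8, 79.0 and 87.2 CPM, 0.12, adjusted p = 0.0674) and defactinib (78.8, 84.0 and 83.8 CPM, 0.11, adjusted p = 0.0648) did not pass but were called in 3 and 4 of 12 alternatives. PROTAC FAK degrader 1 (0.081, adjusted p = 0.104) and VS-4718 (0.087, adjusted p = 0.108) did not pass either. They were called in 2 and 1 of 12 alternatives, both with library totals (0.16, adjusted p = 0.00101, and 0.13, adjusted p = 0.015). GSK215 libraries (75.4, 68.1 and 70.4 CPM) were lower in mean but overlapped DMSO (−0.10, adjusted p = 0.063). With GSK215, Bcl2l1 was called in 4 of 12 alternatives, with values over the 12 from −0.14 to 0.024.

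Mcl1 (chr3:95658788-95663176, plus strand, GRCm38) encodes a short-lived anti-apoptotic protein. It ranged from 129 to 166 CPM over all libraries. With PROTAC FAK degrader 1 its libraries had 134, 133 and 129 CPM, all below the 143, 148 and 156 CPM of DMSO (0.887 of DMSO, log2 fold change −0.17 ± 0.036, adjusted p = 5.1e-05), and this call held in all 12 alternative fits, at −0.092 (adjusted p = 0.0212) with library totals. Calls with GSK2256098 (161, 157 and 163 CPM, 0.10, adjusted p = 0.0452) and BSJ-04-0146 (141, 143 and 138 CPM, −0.083, adjusted p = 0.0496, overlapping DMSO) each held in 5 of 12 alternatives. Scaled by library totals alone, the BSJ-04-0146 difference turned to 0.025. Mcl1 did not pass with defactinib (0.088, adjusted p = 0.0652) or GSK215 (−0.076, adjusted p = 0.0736), but was called in 4 and 2 of 12 alternatives.

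Levels were set side by side per kb of exon, since a longer transcript gives more reads. The length was that of all annotated exons of a gene joined together. Which transcripts these cells held was not tested, so close ranks and the shares depend on this choice. In DMSO, Bak1 was highest at 59.8 ± 1.84 CPM per kb (SD, n = 3), followed by Mcl1 at 43.6 ± 1.93, Bcl2l1 at 16.6 ± 0.657, Bad at 10.8 ± 0.436, Bcl2l11 at 6.03 ± 0.115, Bcl2 at 5.18 ± 0.0803, Bid at 4.09 ± 0.0554, Bmf at 0.743 ± 0.0488 and Bik at 0.148 ± 0.027. The DMSO ranges of neighbours in this order did not overlap. The order was kept in all groups but that of BSJ-04-0146, where Bmf (4.45 ± 0.37) stood above Bid (4.17 ± 0.169). Neighbours with overlapping libraries were Bmf with both Bid and Bcl2 under BSJ-04-0146, Bak1 (42.0 to 44.0 CPM per kb) with Mcl1 (40.1 to 43.4) and Bid (3.38 to 4.21) with Bmf (3.30 to 3.76) under GSK215, and Bcl2l11 with Bcl2 under GSK2256098 (5.36 to 5.83 and 5.25 to 5.67) and defactinib (6.02 to 6.84 and 5.71 to 6.04). Of the summed level of the 10 members per kb, Bak1 held 40.6% in DMSO, 32.5% with PROTAC FAK degrader 1 and with GSK215, and 34.9% with BSJ-04-0146. Bmf held 0.505% in DMSO and 3.05% with BSJ-04-0146, so that the gene with the largest fold change stayed a small part of the summed transcript level.

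**Figure D3:**
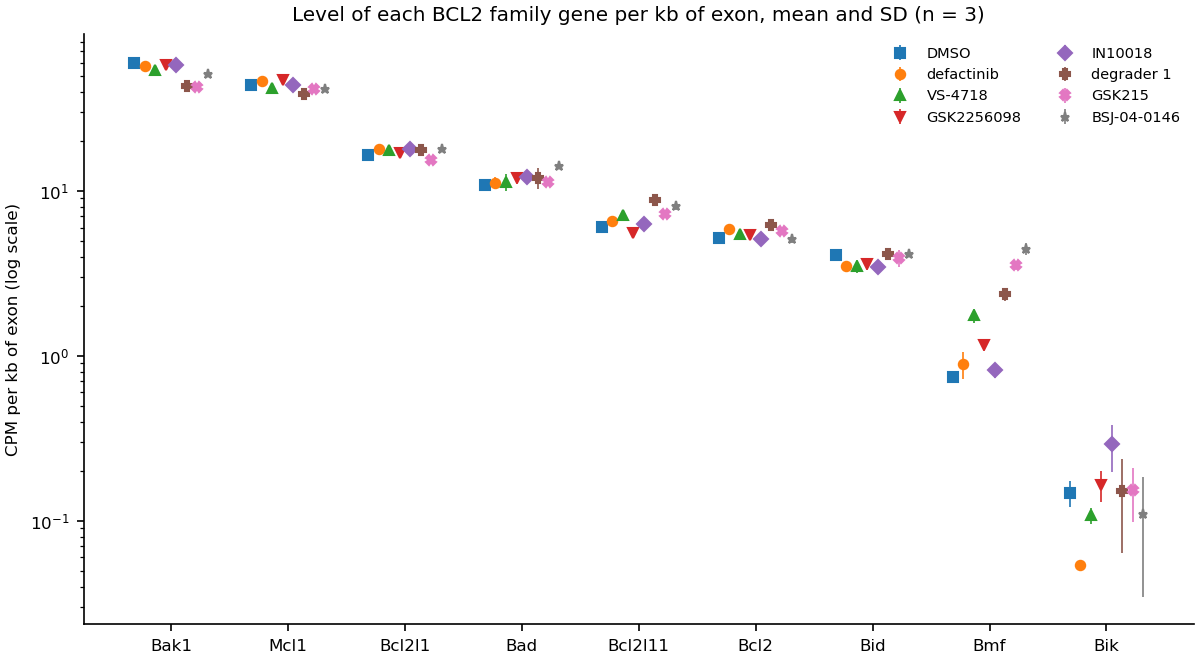
Mean level in CPM per kb of exon (y axis, log scale) of 9 members (x axis) in each of the 8 groups (symbols), with the SD as a bar (n = 3); Pmaip1, with no counts, is left out. In DMSO the levels run from 59.8 (Bak1) to 0.148 (Bik), and Bmf spreads from 0.743 (DMSO) to 4.45 (BSJ-04-0146).

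Doses differ between GSK215 or BSJ-04-0146 (0.1 μM) and the other drugs (1 μM), so their values stand side by side above without a test between them. The 3 pairs chosen for comparison shared dose and time and were compared directly, with p-values adjusted over all genes of the 3 pairs together. GSK215 against BSJ-04-0146, both PROTACs at 0.1 μM, differed at 6 of 8 members, beside 25.8% of all genes called in either direction. Bmf was lower with GSK215 (log2 difference −0.33, 95% interval −0.50 to −0.16, adjusted p = 0.00159), as were Bad (−0.31, −0.47 to −0.15, adjusted p = 0.00134), Bak1 (−0.26, −0.33 to −0.18, adjusted p = 1.7e-07) and Bcl2l1 (−0.22, −0.31 to −0.12, adjusted p = 1.8e-04). Bcl2 was higher with GSK215 (0.16, 0.064 to 0.25, adjusted p = 0.00547), but not when BSJ-04-0146 replicate 1 was left out (0.12, adjusted p = 0.0533, over a range of 8.8e-04 to 0.0533). Bcl2l11 was lower with GSK215 (−0.15, −0.25 to −0.046, adjusted p = 0.0158), a call that was lost without GSK215 replicate 2 or BSJ-04-0146 replicate 3 (adjusted p of 0.0606 and 0.124, over a range of 0.00628 to 0.124). The differences for Mcl1 (0.0073, −0.068 to 0.082) and Bid (−0.083, −0.25 to 0.086) did not pass.

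PROTAC FAK degrader 1 is known as a compound whose FAK ligand derives from defactinib, and both were given at 1 μM. They differed at 5 of 8 members, beside 66.6% of all genes. Compared with defactinib, PROTAC FAK degrader 1 gave more Bmf (1.41, 95% interval 1.19 to 1.63, adjusted p = 5.4e-14), more Bcl2l11 (0.43, 0.33 to 0.53, adjusted p = 1.1e-09) and more Bid (0.24, 0.082 to 0.41, adjusted p = 0.0119). It gave less Bak1 (−0.40, −0.47 to −0.33, adjusted p = 1.1e-12) and less Mcl1 (−0.26, −0.33 to −0.19, adjusted p = 7.7e-08). Without defactinib replicate 3 the Bid call was lost (0.22, adjusted p = 0.0535, over a range of 0.00157 to 0.0535). Bcl2 (0.088, −0.00043 to 0.18), Bad (0.11, −0.049 to 0.26) and Bcl2l1 (−0.029, −0.12 to 0.06) did not pass. Bcl2 was called with library totals (0.15, adjusted p = 0.00477). Bad was called without PROTAC FAK degrader 1 replicate 3 (0.21, adjusted p = 0.0257), and leaving out a library gave values from 0.0069 to 0.21.

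VS-4718 and defactinib, both kinase inhibitors at 1 μM, differed at 3 of 8 members, beside 35.5% of all genes. Bmf was higher with VS-4718 (0.98, 95% interval 0.75 to 1.21, adjusted p = 1.4e-09), and Mcl1 was lower (−0.14, −0.21 to −0.065, adjusted p = 0.00145). The Bcl2l11 difference (0.12, 0.019 to 0.22, adjusted p = 0.0476) passed in only 4 of 12 alternative fits, with adjusted p of 0.023 to 0.438, and the libraries overlapped. Bcl2 (−0.089, −0.18 to −0.0019, adjusted p = 0.0953) and Bak1 (−0.075, −0.14 to −0.0066, adjusted p = 0.0716) did not pass, although every VS-4718 library was below every defactinib library for both. On the log2(CPM + 4) scale the Bmf difference was 0.62 here and 0.93 for PROTAC FAK degrader 1 against defactinib. Bid (−0.009, −0.17 to 0.15), Bad (0.0076, −0.15 to 0.16) and Bcl2l1 (−0.023, −0.11 to 0.064) did not pass either.

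**Figure D4:**
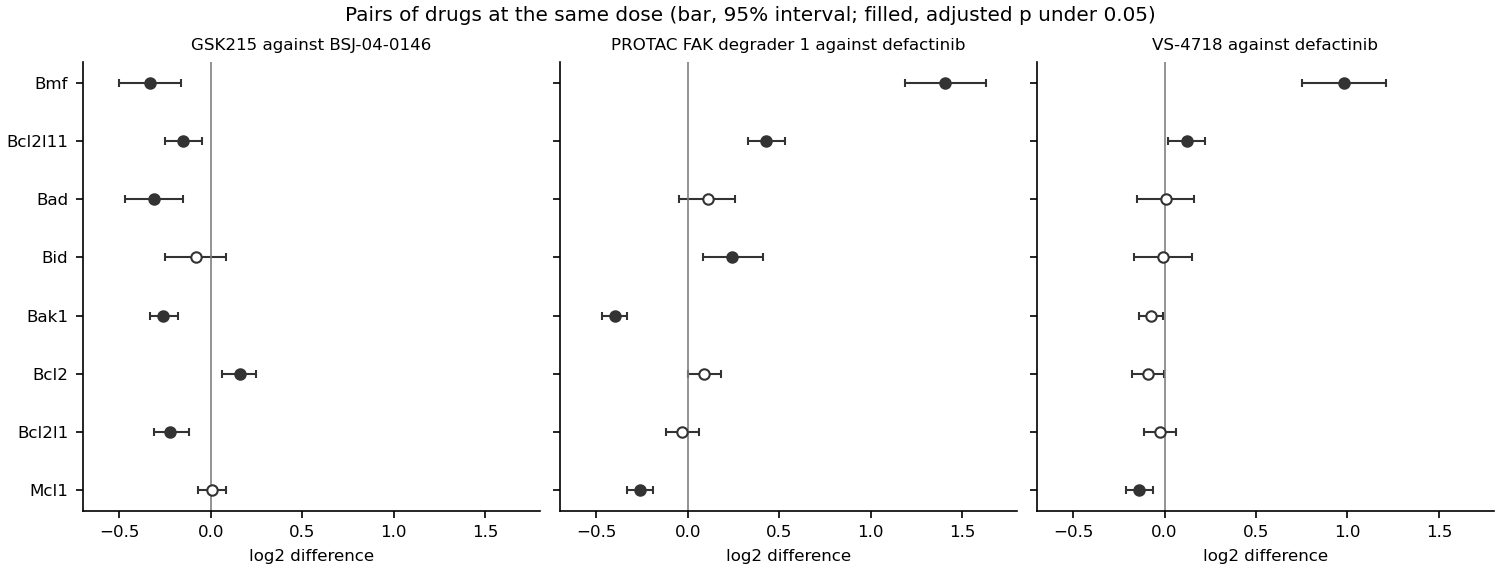
Log2 difference (x axis, 95% interval as a bar, filled points for adjusted p under 0.05) of the 8 members (y axis) for 3 pairs of drugs given at the same dose, the first drug named minus the second. Bmf is the member with the widest differences, at 1.41 for PROTAC FAK degrader 1 against defactinib and 0.98 for VS-4718 against defactinib.

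Beyond the 10 members, 16 other genes of the family were listed, of which 11 were tested. From this list and the others that follow, genes were chosen as those among the 2 largest called changes with at least 1 drug, at a mean of at least 5 CPM over all libraries, which leaves out low genes with larger changes (Hrk, Bok and Bcl2l15). A chosen gene is given with further drugs too, though not with every drug that called it. PROTAC FAK degrader 1 raised 7 and lowered 3 of the 11 tested, the most of any drug, with a median log2 fold change of 0.18. The same drug also called the most of all genes tested (34.1% higher and 32.7% lower). Bbc3, the gene of PUMA, a BH3-only protein often induced by p53 or CHOP, went from 5.88, 6.62 and 6.22 CPM in DMSO to 43.1, 42.3 and 40.9 CPM with PROTAC FAK degrader 1 (log2 fold change 2.75 ± 0.087, adjusted p = 9.1e-27). In the other 6 groups its libraries lay between 4.86 and 9.69 CPM, and of these only IN10018 was called (0.50, adjusted p = 9.6e-04, but 0.33 on the log2(CPM + 4) scale). Bnip3, a mitophagy receptor that low oxygen induces, moved in both directions. It rose with PROTAC FAK degrader 1 (220 against 99.7 CPM, 1.14, adjusted p = 9.5e-27) and IN10018 (161 CPM, 0.69, adjusted p = 5.8e-17). It fell with BSJ-04-0146 (35.8 CPM, −1.48, adjusted p = 6.1e-27), GSK215 (39.1 CPM, −1.35, adjusted p = 7.6e-26), VS-4718 (40.6 CPM, −1.30, adjusted p = 2.4e-25), GSK2256098 (−0.46, adjusted p = 1.4e-11) and defactinib (−0.40, adjusted p = 6.2e-10). Its relative Bnip3l also moved in both directions. It rose with PROTAC FAK degrader 1 (163 against 106 CPM, 0.62, adjusted p = 2.7e-18) and IN10018 (150 CPM, 0.49, adjusted p = 7.4e-13). It fell with GSK215 (−0.35, adjusted p = 5.7e-10, but −0.22 with library totals), VS-4718 (−0.35, adjusted p = 4.5e-10), BSJ-04-0146 (−0.26, adjusted p = 3.5e-07) and GSK2256098 (−0.14, adjusted p = 0.00703).

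Bax encodes the other main pore-forming effector and rose with BSJ-04-0146 and VS-4718, and by less with GSK215 (0.21, adjusted p = 0.00127), PROTAC FAK degrader 1 (0.17, adjusted p = 0.00565) and IN10018 (0.16, adjusted p = 0.0426). It had 182, 204 and 191 CPM for BSJ-04-0146 and 184, 180 and 168 CPM for VS-4718 against 145, 136 and 135 CPM in DMSO (0.48, adjusted p = 8.5e-10, and 0.36, adjusted p = 6.6e-07). Bcl2l13 fell with BSJ-04-0146 (98.7 against 117 CPM, −0.24, adjusted p = 1.0e-07), GSK215 (103 CPM, −0.18, adjusted p = 1.4e-05) and defactinib (105 CPM, −0.14, adjusted p = 0.00107) and rose with PROTAC FAK degrader 1 (132 CPM, 0.18, adjusted p = 3.9e-06). For the other drugs this list had 0 higher and 2 lower with defactinib, 3 and 4 with VS-4718, 0 and 3 with GSK2256098, 4 and 0 with IN10018, 3 and 6 with GSK215 and 3 and 4 with BSJ-04-0146. The 2 calls with defactinib were 4 without defactinib replicate 2. Its medians were between −0.10 and 0.054 for these drugs.

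**Figure D5:**
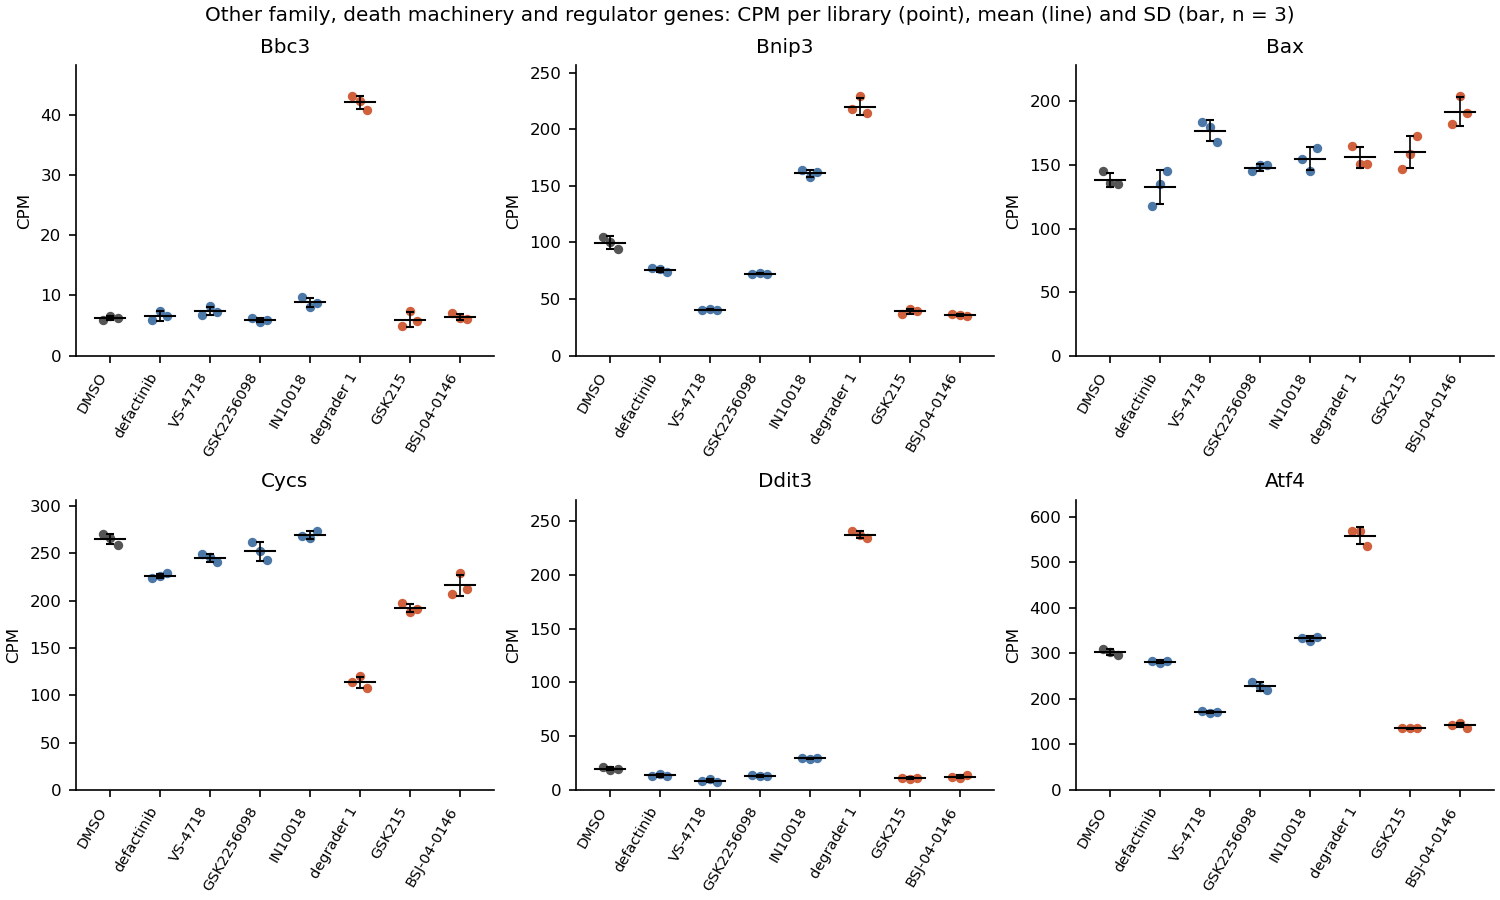
CPM (y axis, from 0) of 6 genes outside the 10 members in every library (points) by treatment (x axis), with the mean as a line and the SD as a bar (n = 3); DMSO is grey, kinase inhibitors are blue and PROTACs orange. Bbc3 and Ddit3 stand at 42.1 and 237 CPM on average with PROTAC FAK degrader 1, beside 6.24 and 19.7 CPM in DMSO.

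Of the 22 genes of the caspase and mitochondrial machinery, all were tested. PROTAC FAK degrader 1 raised 7 and lowered 11, and Cycs, cytochrome c, fell from 270, 266 and 259 CPM to 114, 120 and 108 CPM (−1.22 ± 0.036, adjusted p = 1.6e-27). Aifm1, the mitochondrial flavoprotein AIF, fell from 196 to 111 CPM (−0.83, adjusted p = 3.7e-23). GSK215 raised 2 and lowered 11, with Casp6, an executioner caspase, higher (17.8 against 11.8 CPM, 0.60, adjusted p = 4.6e-08) and Cycs lower (192 CPM, −0.47, adjusted p = 1.9e-14). BSJ-04-0146 raised 5 and lowered 9, with Casp6 at 19.2 CPM (0.71, adjusted p = 7.1e-10) and Birc6, an inhibitor of apoptosis protein, at 252 against 335 CPM (−0.41, adjusted p = 1.1e-11). VS-4718 raised 4 and lowered 7, among them Endog, a mitochondrial nuclease (0.33, adjusted p = 6.1e-04), and Vdac1, an outer membrane channel (−0.28, adjusted p = 1.2e-09). Vdac1 also fell with GSK215 (−0.39, adjusted p = 1.6e-13), BSJ-04-0146 (−0.35, adjusted p = 2.0e-12), defactinib (−0.15, adjusted p = 4.4e-04) and GSK2256098 (−0.092, adjusted p = 0.046) and rose with IN10018 (0.10, adjusted p = 0.0255) and PROTAC FAK degrader 1 (0.091, adjusted p = 0.0103). Birc6 fell most with PROTAC FAK degrader 1 (236 CPM, −0.51, adjusted p = 1.3e-14), and it also fell with GSK215 (−0.20, adjusted p = 2.2e-05). Defactinib raised none and lowered 7, among them Endog (−0.38, adjusted p = 7.8e-04) and Fadd, the death receptor adaptor (−0.32, adjusted p = 4.4e-04), which also fell with all 3 PROTACs (−0.58 to −0.19) and VS-4718 (−0.25). IN10018 raised 2 and lowered 1 (Casp6 0.30, adjusted p = 0.00978, and Birc6 −0.21, adjusted p = 1.6e-04), and GSK2256098 lowered 1. The Casp6 call with IN10018 was lost without DMSO replicate 2, DMSO replicate 3 or IN10018 replicate 3, with adjusted p of 0.00271 to 0.0748 over its alternatives. Of the counts of this list, the 11 calls with VS-4718 were 7 without VS-4718 replicate 1, the 3 with IN10018 were 1 without DMSO replicate 2 or IN10018 replicate 3, and the 1 with GSK2256098 was 0 without DMSO replicate 1 or 3 or GSK2256098 replicate 1 or 2. List medians were between −0.17 and 0.023 for the 7 drugs.

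Among 18 known regulators of family genes, 17 were tested. The shares of all genes called with each drug, given above, are the background for this list as for the others. Ddit3, which encodes the stress factor CHOP, rose from 21.0, 18.8 and 19.2 CPM to 241, 237 and 234 CPM with PROTAC FAK degrader 1 (3.59 ± 0.054, adjusted p = 5.9e-37) and to a mean of 29.3 CPM with IN10018 (0.58, adjusted p = 3.1e-08). It fell with VS-4718 (8.61 CPM, −1.20, adjusted p = 1.5e-15), GSK215 (10.8 CPM, −0.87, adjusted p = 5.8e-12), BSJ-04-0146 (12.2 CPM, −0.70, adjusted p = 1.0e-09), GSK2256098 (13.3 CPM, −0.56, adjusted p = 5.3e-07) and defactinib (13.4 CPM, −0.55, adjusted p = 3.9e-07). Atf4, which acts upstream of Ddit3, rose with PROTAC FAK degrader 1 to 570, 570 and 536 CPM (0.88, adjusted p = 2.8e-25) and with IN10018 to a mean of 333 CPM (0.14, adjusted p = 0.00242). It fell with GSK215 (135 against 303 CPM, −1.16, adjusted p = 1.5e-27), BSJ-04-0146 (142 CPM, −1.09, adjusted p = 8.8e-27), VS-4718 (171 CPM, −0.82, adjusted p = 1.5e-22), GSK2256098 (228 CPM, −0.41, adjusted p = 1.5e-12) and defactinib (282 CPM, −0.10, adjusted p = 0.0129). Dynll1, a dynein light chain that binds BIM, fell from 109 to 49.7 CPM with PROTAC FAK degrader 1 (−1.13, adjusted p = 2.1e-23) and was higher with 4 other drugs (0.11 to 0.16). Egr1, an immediate-early factor, rose with GSK215 (21.3 against 9.13 CPM, 1.22, adjusted p = 3.0e-16), and Jun fell with defactinib (−0.31, adjusted p = 4.8e-07) and 4 other drugs (−0.54 to −0.30) and rose with IN10018 (0.16, adjusted p = 0.00557). Foxo3, a factor known to act on Bcl2l11, rose with PROTAC FAK degrader 1 (122 against 80.1 CPM, 0.61, adjusted p = 1.7e-16) and IN10018 (93.7 CPM, 0.22, adjusted p = 1.9e-04). It fell with GSK215 (72.9 CPM, −0.14, adjusted p = 0.00613), BSJ-04-0146 (74.0 CPM, −0.12, adjusted p = 0.0222) and defactinib (74.0 CPM, −0.11, adjusted p = 0.0473). In counts higher and lower, this list had 9 and 6 with PROTAC FAK degrader 1, 3 and 11 with GSK215, 3 and 12 with BSJ-04-0146, 5 and 6 with VS-4718, 1 and 6 with defactinib, 2 and 4 with GSK2256098 and 7 and 1 with IN10018. The 7 calls with defactinib were 4 without DMSO replicate 1 or 3, and the 8 with IN10018 were 5 without DMSO replicate 1 or 2 or IN10018 replicate 1. Its medians ran from −0.19 to 0.10.

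The genes whose 8 group means ran most like those of a member were named for the pair of members with the widest range on the log2(CPM + 4) scale, Bmf (1.79) and Bcl2l11 (0.61), over 10282 genes with a mean of at least 5 CPM. For Bmf they were Zcwpw1 (Pearson r = 0.995), Arhgef19 (0.994), Ubn1 (0.993) and Artn (0.992). For Bcl2l11 they were Gcc1 (0.987), Oscp1 (0.985), Wdpcp (0.98) and Tspyl2 (0.978). These are correlations over 8 group means that share the same libraries and were picked as the highest of many, so they describe likeness only. Over the groups Artn, which encodes the neurotrophic factor artemin, ranged from 42.4 to 71.2 CPM, and Gcc1 from 15.7 to 22.5 CPM.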

How the data were processed

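Total RNA of 24 libraries was prepared with polyA selection and sequenced by a commercial service. The values are raw gene counts as deposited by the authors, who per the submitters' processing notes used Trimmomatic 0.36, STAR 2.5.2b and featureCounts of Subread 1.5.2 with the GRCm38 build. The annotation and strand setting are not given in the sources used here, so overlapping genes on opposite strands cannot be separated. Exon lengths and coordinates are from GENCODE M21, in which 48970 of 49315 gene identifiers were found.

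Counts were filtered with filterByExpr, scaled by TMM and fitted with edgeR 4.0.16 (quasi-likelihood test, 1 coefficient per group, 16 residual degrees of freedom) in R 4.3.3. For each drug against DMSO, Benjamini-Hochberg adjustment covered 16070 genes, or over these genes and 3 pairs together. SE is the log2 fold change divided by the root of F. The alternatives were DESeq2 1.42.0, limma 3.58.1 on log2(CPM + 4), library totals in place of TMM, no filter, a replicate block, fits of the 6 libraries of a comparison alone, a 1.5-fold rule, and leaving out each library. The 12 alternative fits counted for a result do not include the 1.5-fold rule. Under that rule the only member calls kept were those of Bmf. The count tests were also run on simulated data with known changes, whose outcome is not given here and is not used as support. Depth was 14472462 to 27449516 counts per library, and intervals and floors for single counts cover counting error only.

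The members and gene lists were chosen with earlier results of these data known. Genes were chosen from each list as the 2 or fewer called genes with the largest change for each drug, among those with a mean of at least 5 CPM and with all 3 treated libraries beyond all 3 DMSO libraries. Their further values with other drugs were added after the values were seen. Replicates are cultures of 1 line. In the main fit each p-value sets a difference between groups against the spread between replicates, estimated from all 8 groups together.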

Additional observations from a re-analysis of the deposited data

How the results depend on the processing

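The 8 members tested gave 56 comparisons with DMSO. Direction and side of the threshold were kept in 53 with DESeq2, 54 with limma, 50 without a filter, 49 with only the 6 libraries of each comparison and 41 with library totals, and in 289 of 336 fits that left out 1 library. Library totals moved the median of all genes from 0.021 to 0.14 with GSK215 and from 0.018 to 0.13 with BSJ-04-0146. They added 8 calls against DMSO (of Bcl2, Bcl2l1, Mcl1 and Bad) and 1 in the pairs (of Bcl2), and they lost 2 against DMSO (of Bid). They turned the sign of Bcl2 (0.094), Mcl1 (0.025) with BSJ-04-0146, of Bcl2l1 (0.024), Mcl1 (0.047) and Bid (0.069) with GSK215, of Bcl2l1 for PROTAC FAK degrader 1 against defactinib (0.035) and of Bid for VS-4718 against defactinib (0.012). The replicate numbers gave no sign of pairing the samples. Each library was taken as its deviations from its group mean, over genes with a mean of at least 5 CPM. These deviations correlated at −0.302 to 0.161 between same-numbered libraries, and no comparison had all its correlations over 0.1. With the replicate block, 54 of 56 comparisons kept their side of the threshold, the calls of Mcl1 with BSJ-04-0146 (adjusted p = 0.0522) and Bid with defactinib (adjusted p = 0.0529) were lost, and 1 member was called with defactinib.

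Under the 1.5-fold rule the members called fell to 0 with defactinib, 1 with VS-4718, 1 with GSK2256098, 0 with IN10018, 1 with PROTAC FAK degrader 1, 1 with GSK215 and 1 with BSJ-04-0146, and to 0, 1 and 1 for GSK215 against BSJ-04-0146, PROTAC FAK degrader 1 against defactinib and VS-4718 against defactinib. Where 1 member was left, it was Bmf. With defactinib, DESeq2, limma and no filter each called 1 member, its 6 libraries alone called 5, and leaving out a library gave 1 to 3. With GSK2256098, DESeq2 and no filter called 1, and leaving out a library gave 1 to 2. With IN10018, library totals called 2, limma and no filter 0, its 6 libraries alone 3, and leaving out a library gave 0 to 2. The shares of all genes called in these other fits are not set beside these member counts. The counts therefore show how calls moved, and no excess or lack among the members. Over all genes the 1.5-fold rule left 265 of 3594 with defactinib, 893 of 6303 with VS-4718, 125 of 2001 with GSK2256098, 106 of 2136 with IN10018, 4949 of 10741 with PROTAC FAK degrader 1, 2516 of 8786 with GSK215, 2581 of 8771 with BSJ-04-0146, and 322 of 4154, 5170 of 10697 and 667 of 5698 for the 3 pairs. In the order defactinib, VS-4718, GSK2256098, IN10018, PROTAC FAK degrader 1, GSK215 and BSJ-04-0146, it left 0, 3, 1, 1, 5, 3 and 2 called genes of the other family list, 0, 0, 0, 0, 4, 1 and 1 of the caspase list and 0, 2, 0, 0, 10, 4 and 3 of the regulators. Leaving out a library gave 1298 to 1622 genes with GSK2256098 (lowest without its replicate 3) and 1380 to 1824 with IN10018 (lowest without DMSO replicate 2).

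Leaving out a library turned the sign of members near 0, with ranges for Bad of −0.00053 to 0.14 (VS-4718), −0.0029 to 0.11 (defactinib) and −0.068 to 0.10 (VS-4718 against defactinib), for Bcl2 of −0.064 to 0.021 (BSJ-04-0146) and −0.037 to 0.00055 (IN10018), and for Bcl2l1 of −0.0096 to 0.046 (GSK2256098) and −0.053 to 0.0016 (PROTAC FAK degrader 1 against defactinib). For Bid they were −0.11 to 0.029 (GSK215), −0.14 to 0.0024 (GSK215 against BSJ-04-0146) and −0.094 to 0.026 (VS-4718 against defactinib), and for Mcl1 −0.015 to 0.047 (IN10018) and −0.026 to 0.032 (GSK215 against BSJ-04-0146). None of these 12 results had been called. Casp6 with IN10018 lost its call without DMSO replicate 2, DMSO replicate 3 or IN10018 replicate 3. Why results moved was not tested. The PROTAC libraries were shallower than the others.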
